A study of Mus musculus with 3 samples.

Results

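The 6 genes described here form the FGF21 axis as it can be read in liver nuclei: the hormone gene Fgf21, its co-receptor gene Klb and the 4 FGF receptor genes Fgfr1, Fgfr2, Fgfr3 and Fgfr4. They were chosen by symbol, and each was found once among the 32285 features of the deposited matrices. The data are single-nucleus RNA libraries from livers of male mice whose line is given as C57BL/6N in the study description and as C57BL/6 in the sample labels. All mice were 8 weeks old at the start. The SD group was kept on a standard diet with no drug. The MASLD group (metabolic dysfunction-associated steatotic liver disease) was given a custom diet and a sugar drink (named as sucrose, with D-glucose and fructose listed as its contents) over 18 weeks. The Aza-TdC group was kept on the same diet and drink over 18 weeks and was given 5-Aza-4′-thio-2′-deoxycytidine, a nucleoside that inhibits DNA methylation, at 2 mg/kg by mouth each day from week 14 to week 18. There was 1 library per group, made from 120 mg of frozen tissue with sorting of DAPI-stained nuclei. No source used here gives the number of animals behind each library. With 1 library per group, no test between groups could be made, every interval below covers counting error only, and spread between animals was not measured. Differences of diet or drug cannot be told apart from differences between animals, tissue pieces or library preparations.

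FGF21 is a hormone that the liver releases in fasting, protein restriction and metabolic stress. It acts through a receptor complex in which beta-klotho, the product of Klb, binds the hormone and an FGF receptor, mainly FGFR1, carries the signal into the cell. In hepatocytes beta-klotho also pairs with FGFR4, the receptor through which the gut hormone FGF15 lowers bile acid synthesis. Transcription of Fgf21 in liver is known to be driven by PPARA, the fatty acid sensor of hepatocytes, by ATF4, the effector of amino acid and endoplasmic reticulum stress, and by the carbohydrate sensor ChREBP.

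On GRCm38.p6, RefSeq places Fgf21 at chr7:45613890-45615490, Klb at chr5:65348411-65386957 and Fgfr1 at chr8:25518759-25575718. Fgfr2 lies at chr7:130162451-130266808, Fgfr3 at chr5:33721724-33737068 and Fgfr4 at chr13:55152818-55168759. All 6 are protein-coding. The transcribed spans run from 1601 bases for Fgf21 to 104358 bases for Fgfr2. Long genes give more unspliced RNA in nuclei, so levels below are compared between libraries and classes and never between genes. RefSeq promoter windows of 250 bases before to 50 bases after the start were found for 5 of the 6 genes, with 2 windows for Fgfr3. The windows of the hormone and of its co-receptor are shown because they are the ligand and its binding partner, whose joint detection is examined further on. They are written 5′ to 3′ on the strand of the gene, from chr7:45615441-45615740 (minus strand) and chr5:65348161-65348460 (plus strand), with matched motifs in capitals.
Fgf21: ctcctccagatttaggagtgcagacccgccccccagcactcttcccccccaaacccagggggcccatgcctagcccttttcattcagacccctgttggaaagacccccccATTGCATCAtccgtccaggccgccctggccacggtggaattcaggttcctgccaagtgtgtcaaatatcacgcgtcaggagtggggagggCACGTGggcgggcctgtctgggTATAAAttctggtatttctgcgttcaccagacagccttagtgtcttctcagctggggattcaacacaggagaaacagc
Klb: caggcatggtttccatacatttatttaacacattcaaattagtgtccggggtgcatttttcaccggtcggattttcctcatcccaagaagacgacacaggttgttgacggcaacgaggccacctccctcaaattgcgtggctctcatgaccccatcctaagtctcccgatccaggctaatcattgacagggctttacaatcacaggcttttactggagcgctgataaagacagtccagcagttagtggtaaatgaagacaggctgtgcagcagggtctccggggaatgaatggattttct
Both strands were searched for 5 motifs: TGATGCAAT, of the kind ATF4 binds, the E-box CACGTG, the TATA box TATAAA, the nuclear receptor half-site AGGTCA, and a direct repeat of AGGTCA with 1 base between, the kind PPARA binds. The Fgf21 window held TGATGCAAT on the opposite strand with its first base at -140 from the start, CACGTG at -50 and TATAAA at -28, and these matches did not overlap. Of 32851 promoter windows of the same length, 63 (0.192%) held TGATGCAAT, 7.15% held CACGTG and 13.6% held TATAAA. The half-site AGGTCA (in 16.3% of windows) and its direct repeat (in 13 windows) had no match in the Fgf21 window. The Klb window held none of the 5 motifs. Among the other windows, CACGTG in Fgfr2, at 28, was the single match. The count of CG pairs, the sites that DNA methylation uses, was 9 in the Fgf21 window, 10 in Klb, 4 in Fgfr2, 20 in Fgfr4, and 26 and 30 in the Fgfr3 windows, against a median of 7 over all windows. These are descriptions of letters, and methylation was not measured here.

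The matrices held 7139 barcodes for SD, 6928 for MASLD and 7598 for Aza-TdC, with 45162618, 43569644 and 51789068 UMIs (molecules counted by unique barcode). After filtering, 7139, 6726 and 7591 nuclei were kept, with median depths of 5849, 6030 and 6385 UMIs. The libraries shared 9 to 15 barcodes pairwise. Nuclei with hepatocyte markers separated almost wholly by library: clusters 0, 1, 2 and 4 held SD nuclei, clusters 13 and 14 mostly MASLD nuclei, clusters 11 and 15 Aza-TdC nuclei, and clusters 12 and 16 nuclei of both libraries on the MASLD diet. Cluster 14, with 3087 MASLD nuclei, met the hepatocyte rule with 18 of 22 markers. This count alone does not set hepatocytes apart, as the T and NK-like cluster 6 had 17 and the endothelial-like cluster 5 had 16. The closest other class of cluster 14 was erythroid, at a marker median log2 of 1.94, under the 3 needed for a name. Cluster 14 lost the hepatocyte name because the T cell gene Themis was among its 10 leading genes. Themis stood there at 92.1 CPM (UMIs of the gene scaled to a common total of all UMIs), against 990 CPM in the T and NK-like cluster. Of the 16 T and NK markers, 14 were under 1 CPM in cluster 14. These 10 clusters, 0, 1, 2, 4 and 11 to 16, are therefore called the hepatocyte pool, and values without cluster 14 are given where they matter. The pool held 6858 SD, 5974 MASLD and 6800 Aza-TdC nuclei, 96.1%, 88.8% and 89.6% of those kept, with median depths of 5946.5, 6413 and 6759.5 UMIs.

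Fgf21, the hormone itself, was scarce in the SD hepatocyte pool and abundant in both libraries on the MASLD diet. It stood at 2.80 CPM (95% Poisson interval 2.33 to 3.33, 124 UMIs) in SD, at 67.2 CPM (64.7 to 69.8, 2776 UMIs) in MASLD and at 42.8 CPM (41.0 to 44.7, 2127 UMIs) in Aza-TdC. SD was the low library, MASLD the high one, and none of the 3 intervals overlapped. The level in MASLD was 24.0 times that in SD (20.1 to 29.0), a log2 ratio of 4.59 (4.33 to 4.86). Aza-TdC stood at 0.637 times the MASLD level, a log2 ratio of -0.65 (-0.73 to -0.57), and still at 15.3 times the SD level (12.8 to 18.5). Fgf21 was detected in 1.65% of SD nuclei, 27.2% of MASLD nuclei and 20.4% of Aza-TdC nuclei. After every nucleus was thinned to 3000 UMIs, these shares were 0.915%, 15.1% and 10.5%, in the same order.

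Genes were called higher or lower where the log2 ratio was at least 1 in either direction and the exact binomial interval of the ratio excluded 0. Against SD, 13% of the 15773 genes tested in the pool were called higher in MASLD and 4.86% lower. Of the 6 members, 1 was called higher (Fgf21) and 2 lower (Fgfr1 and Fgfr4). Between Aza-TdC and MASLD, which share the MASLD library with the first comparison, 2.82% of 15940 genes were called higher and 4.89% lower, and 0 of the 6 members were called. The median log2 ratio over all genes tested was 0.15 for MASLD over SD and -0.092 for Aza-TdC over MASLD. For the members the medians were -0.61 and -0.12. Without cluster 14, Fgfr4 lost its call for MASLD over SD (log2 ratio -0.88), and Fgf21 was called lower in Aza-TdC than in MASLD (log2 ratio -1.14). Cluster 14 held 51.7% of the MASLD pool nuclei but 0.382% of the Aza-TdC pool nuclei. This setting therefore compares a part of the MASLD pool with nearly all of the other pools. Over all kept nuclei Fgfr1 lost its call, at -0.64. The level of endothelial-like nuclei was also subtracted as an estimate of free RNA, which cannot serve for Fgfr1 and Fgfr2 because of their levels in that class. With this subtraction Fgfr3 was called lower in MASLD than in SD (-1.61), and Fgf21 was called lower in Aza-TdC than in MASLD (-1.12). The subtracted levels rested on 6 SD and 9 MASLD UMIs of Fgfr3, and on 12 MASLD and 10 Aza-TdC UMIs of Fgf21. The intervals behind these calls leave out the counting error of the subtracted level, so the calls are uncertain.

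**Figure D1:**
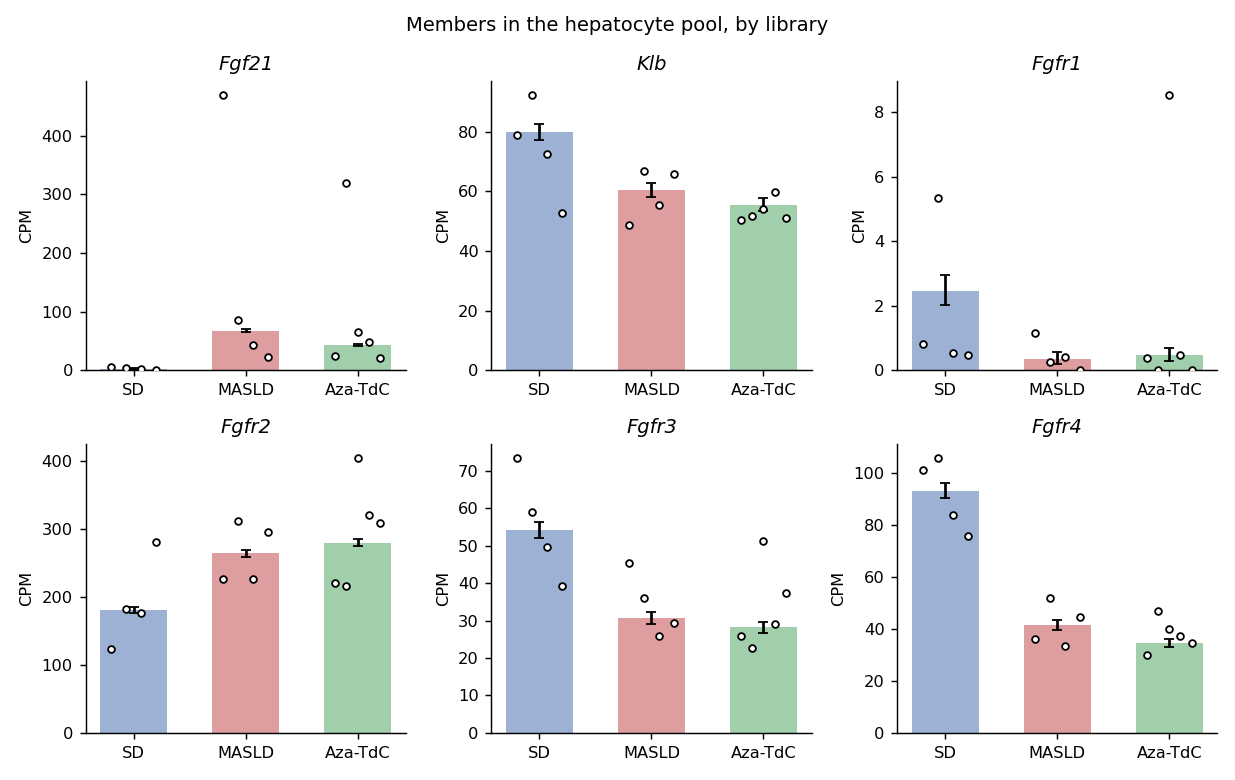
Level of each member in the hepatocyte pool of each library, in CPM on axes that start at 0 and differ between panels. Bars are the pooled level with its 95% Poisson interval, and open circles are single clusters with at least 50 nuclei of that library. Fgf21 stood at 2.80, 67.2 and 42.8 CPM, with cluster 12 far above the other clusters in both MASLD-diet libraries, while the SD bar was the highest for Klb, Fgfr1, Fgfr3 and Fgfr4 and the lowest for Fgfr2.

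Klb, which encodes beta-klotho, was lower in both MASLD-diet libraries by less than the calling size. The SD library gave 79.8 CPM (77.2 to 82.5), the MASLD library 60.3 CPM (58.0 to 62.7) and the Aza-TdC library 55.6 CPM (53.5 to 57.7). SD was the high library and its interval lay above both others, while those of MASLD and Aza-TdC were apart by a narrow margin. The log2 ratios were -0.40 (-0.48 to -0.33) for MASLD over SD and -0.12 (-0.20 to -0.039) for Aza-TdC over MASLD. A Klb UMI was found in 33.8%, 29.9% and 29.5% of pool nuclei, and in 20.2%, 15.6% and 15.1% after thinning to 3000 UMIs. In endothelial-like nuclei, which should lack it, the unthinned shares were 9.65%, 4.44% and 3.83%, at median depths of 2088, 1795.5 and 1627 UMIs. Across the 13 pools of 1 library and 1 cluster, Klb ran from 48.8 CPM in MASLD cluster 12 to 92.4 CPM in SD cluster 1.

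Fgfr4, the receptor that hepatocytes use with beta-klotho for FGF15, was lower in both MASLD-diet libraries. It stood at 93.2 CPM (90.4 to 96.1) for SD, 41.4 CPM (39.5 to 43.4) for MASLD and 34.5 CPM (32.9 to 36.1) for Aza-TdC. The SD interval lay far above the other 2, and Aza-TdC was the lowest. The log2 ratio was -1.17 (-1.25 to -1.09) for MASLD over SD and -0.27 (-0.36 to -0.17) for Aza-TdC over MASLD. It was detected in 41.7% of SD nuclei, against 22.7% of MASLD and 21.0% of Aza-TdC nuclei, and after thinning in 23.3%, 11.1% and 9.90%. All 4 SD clusters, at 75.8 to 106 CPM, lay above all 9 pools on the MASLD diet, at 30.1 to 51.9 CPM.

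Fgfr3, a receptor with roles in bone growth, was lower in the same libraries but under the calling size. Its level in SD was 54.1 CPM (52.0 to 56.3), beside 30.6 CPM (29.0 to 32.4) for MASLD and 28.2 CPM (26.8 to 29.7) for Aza-TdC. SD was the high library, and the intervals of MASLD and Aza-TdC overlapped. The log2 ratios were -0.82 (-0.92 to -0.72) and -0.12 (-0.23 to -0.0080). With the median-ratio scaling, which moves the median over all genes from 0.15 to 0.012, Fgfr3 was at -0.96 and Fgfr4 at -1.31.

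Fgfr2, the receptor best known from epithelial and mesenchymal tissues, was the one member besides Fgf21 with a higher level on the MASLD diet. SD stood at 180 CPM (176 to 184), MASLD at 264 CPM (259 to 269) and Aza-TdC at 280 CPM (275 to 284). SD was the low library and no interval overlapped another. The log2 ratio for MASLD over SD was 0.55 (0.51 to 0.59) and fell short of the calling size. That for Aza-TdC over MASLD was 0.086 (0.049 to 0.12). Its sign was the opposite without cluster 14 (-0.13), a setting that leaves out 51.7% of the MASLD pool nuclei. Fgfr2 was detected in 60.2%, 70.2% and 78.3% of pool nuclei, and the thinned shares kept SD lowest at 39.7%.

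Fgfr1, the receptor that carries most FGF21 signalling in fat and brain, gave few UMIs in the hepatocyte pool. The SD pool held 109 of its UMIs, the MASLD pool 14 and the Aza-TdC pool 23. The levels were 2.46 CPM (2.02 to 2.97), 0.339 CPM (0.185 to 0.569) and 0.463 CPM (0.294 to 0.695), so SD was high and the other 2 intervals overlapped. The log2 ratio was -2.86 (-3.78 to -2.05) for MASLD over SD and 0.45 (-0.57 to 1.52) for Aza-TdC over MASLD. Of the 109 SD UMIs, 94 came from cluster 1, spread over 78 nuclei with at most 3 UMIs each, at 5.35 CPM (4.32 to 6.54). SD clusters 0, 2 and 4 held 2, 12 and 1 UMIs. A UMI of Fgfr1 was found in 1.34% of SD pool nuclei, 0.218% of MASLD nuclei and 0.324% of Aza-TdC nuclei. The class that should lack the gene, T and NK-like nuclei, had an Fgfr1 UMI in 0 of 23 SD nuclei (which allows a share of up to 13.0%), 1 of 26 MASLD nuclei and 0 of 29 Aza-TdC nuclei, too few to set a background. Their median depths were 2373, 1513.5 and 1620 UMIs.

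The libraries also differed in RNA quality and in RNA of other cells within the pool. The list of nuclear and RNA quality genes, which holds nuclear long RNAs, mitochondrial, ribosomal, actin and stress genes, had 9 of 18 members higher and 0 lower in MASLD than in SD, with a median log2 ratio of 1.08. In Aza-TdC it had 0 higher and 11 lower than in MASLD, with a median of -1.21. The shares over all genes tested were 13% higher and 4.86% lower for MASLD over SD, and 2.82% and 4.89% for Aza-TdC over MASLD. The 7 mitochondrial transcripts of that list summed to 1051.8 CPM for SD, 2150.2 CPM for MASLD and 753 CPM for Aza-TdC. The nuclear long RNA Malat1 went the other way, at a log2 ratio of -0.74 and then 0.44. The 7 erythroid markers summed to 38.3, 364 and 59.9 CPM and the 17 macrophage markers to 7.49, 45.5 and 38.3 CPM. None of the macrophage markers was at 0 in any pool, and 2, 1 and 1 of the erythroid markers were. The erythroid and macrophage sums thus share with Fgf21 the order SD, Aza-TdC, MASLD, while the mitochondrial sum was lowest in Aza-TdC. The part of these transcripts in the differences of the members was not tested. With nuclei limited to at most 1% mitochondrial UMIs, the counts of members called were the same in both comparisons.

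Fgf21 was concentrated in some hepatocyte clusters. Cluster 12, whose leading genes included Fgf21 itself with Angptl8, Gadd45a and Nupr1, is named partly by Fgf21, so its level is a description only. It stood at 469 CPM in the 85 MASLD nuclei and 319 CPM in the 83 Aza-TdC nuclei of that cluster. Elsewhere in MASLD, Fgf21 was at 85.5 CPM in cluster 13, which was led by Spp1 and the apolipoprotein gene Apoa4. It was at 42.6 CPM in cluster 14 and 23.2 CPM in cluster 16, which carries the pericentral genes Glul and Slc1a2. In Aza-TdC it was at 48.6 CPM in cluster 15 and 25.0 CPM in cluster 11, with 65.5 CPM in the 69 nuclei of cluster 13 and 20.5 CPM in cluster 16. In SD the clusters ran from 0 UMIs in cluster 4 (which allows up to 1.45 CPM), led by Slc1a2 and Lgr5, through 2.17 CPM in cluster 2 and 3.53 CPM in cluster 1 to 5.60 CPM in cluster 0. Within clusters shared by the MASLD-diet libraries, the log2 ratio of Aza-TdC over MASLD was -0.56 (-0.79 to -0.33) in cluster 12. It was -0.38 (-1.05 to 0.21) in cluster 13 and -0.17 (-0.80 to 0.45) in cluster 16, where both intervals included 0. Klb levels varied less across clusters 12, 13 and 16 of these 2 libraries, between 48.8 and 66.7 CPM. The Klb log2 ratio of Aza-TdC over MASLD was 0.088 (-0.57 to 0.74) in cluster 12. It was -0.30 (-1.04 to 0.35) in cluster 13 and -0.36 (-0.74 to 0.012) in cluster 16, and each interval included 0.

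The unnamed cluster 8, led by haemoglobin genes and shallow at a median of 1259 UMIs in MASLD and 719 in Aza-TdC, was kept out of the pool. It held no SD nuclei. Fgf21 stood there at 110 CPM (66.5 to 172, 19 UMIs) in 131 MASLD nuclei and 41.7 CPM (11.4 to 107, 4 UMIs) in 101 Aza-TdC nuclei.

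In the MASLD-diet libraries a few nuclei held many Fgf21 UMIs. In MASLD, 1111 pool nuclei had 1 Fgf21 UMI, 287 had 2, 111 had 3 and 116 had 4 or more, with a maximum of 26. The 60 nuclei with most Fgf21, 1% of the pool, held 18.9% of its UMIs. The variance over the mean was 3.29. In Aza-TdC the maximum was 56 UMIs in 1 nucleus, the top 1% held 20.8% and the variance over the mean was 3.97. In SD no nucleus had more than 3 UMIs and the variance over the mean was 1.18. For Klb the variance over the mean was 1.52 for SD, 1.35 for MASLD and 1.31 for Aza-TdC, with at most 7 UMIs per nucleus. In SD this ratio was thus lower for Fgf21 than for Klb. It is not directly comparable between counts of different mean and also rises with the spread of UMIs per nucleus.

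Whether the nuclei that make the hormone also hold transcripts of its co-receptor was then examined. In MASLD, 1625 pool nuclei had an Fgf21 UMI, 1785 had a Klb UMI and 548 had both, 9.17% of the pool. The product of the 2 shares gives 486 double-positive nuclei, so the observed count was 1.13 times the product. In Aza-TdC 443 nuclei were double-positive against a product of 408, a ratio of 1.09, and in SD 46 against 38.2, a ratio of 1.20. Klb was found in 33.7% (31.4% to 36.1%) of Fgf21-positive and 28.4% (27.1% to 29.8%) of Fgf21-negative MASLD nuclei. In Aza-TdC these shares were 32.0% (29.5% to 34.5%) and 28.8% (27.6% to 30.1%). Fgf21-positive nuclei were also deeper, with a median of 7138 against 6122 UMIs in MASLD and 7568 against 6555 in Aza-TdC.

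Within 5 bins of UMIs per nucleus the excess became small. The double-positive count over the summed products of the bins was 1.11 for SD, 1.04 for MASLD and 1.01 for Aza-TdC. After thinning to 3000 UMIs it was 0.965 in MASLD (128 nuclei) and 1.03 in Aza-TdC (106 nuclei), and 1.39 in SD on 16 nuclei. The level of Klb, which does not depend on depth in this way, was 60.7 CPM (56.5 to 65.1) in Fgf21-positive and 60.2 CPM (57.4 to 63.1) in Fgf21-negative MASLD nuclei. In Aza-TdC it was 56.4 CPM (52.2 to 61.0) and 55.4 CPM (53.0 to 57.8). In the 227 MASLD nuclei with 3 or more Fgf21 UMIs, Klb was at 58.0 CPM (48.2 to 69.1). All these intervals overlapped within each library, so no difference in Klb level between nuclei with and without the hormone's transcript was detectable at this depth.

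**Figure D2:**
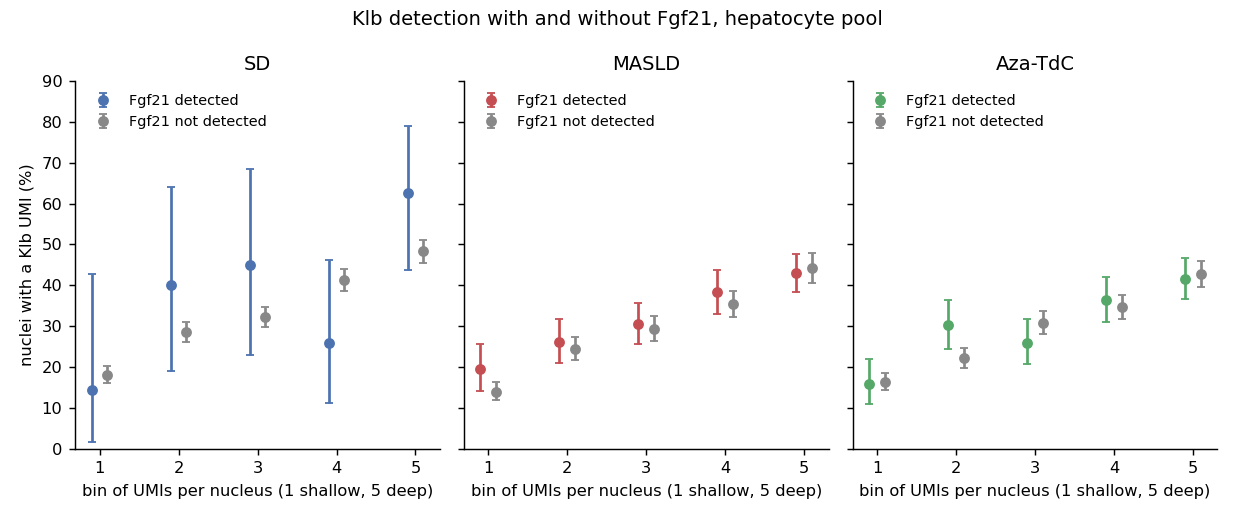
Share of hepatocyte-pool nuclei with a Klb UMI (y axis, percent) in 5 bins of UMIs per nucleus (x axis, shallow to deep), by library. Coloured points are nuclei with an Fgf21 UMI, grey points nuclei without, and bars are 95% Clopper-Pearson intervals. In MASLD both series climb together, from 19.5% and 14.0% in the first bin to 43.0% and 44.2% in the fifth, and the wide SD intervals rest on 14 to 32 Fgf21-positive nuclei per bin.

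The receptor genes differed a little by Fgf21 status. Fgfr2 stood at 293 CPM in Fgf21-positive and 250 CPM in Fgf21-negative MASLD nuclei, a log2 ratio of 0.23 (0.17 to 0.29), and at 299 and 274 CPM in Aza-TdC, 0.13 (0.073 to 0.19). In MASLD it was 250 CPM with no Fgf21 UMI, 270 with 1, 329 with 2 and 341 with 3 or more. Fgfr4 gave 0.13 (-0.018 to 0.28) for MASLD and 0.20 (0.043 to 0.36) for Aza-TdC. Over 11765 genes in MASLD, 10% of log2 ratios by Fgf21 status lay below -0.15 and 10% above 0.30, and over 11896 genes in Aza-TdC these bounds were -0.16 and 0.22, so the differences of Fgfr2 and Fgfr4 lie inside the range of most genes. Fgfr1, the main signalling partner of beta-klotho, shared few nuclei with Klb: 34 double-positive nuclei in SD (product 31.1), 3 in MASLD (3.88) and 8 in Aza-TdC (6.48).

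Along the lobule, Fgf21 and several partners were higher at the periportal end. Pool nuclei of each library were ordered by the share of pericentral-list UMIs among pericentral plus periportal UMIs and divided into 5 equal bins, from 1 at the periportal to 5 at the pericentral end. These bins are ranges of a score, and each library was divided on its own, so bins are not the same places in different livers. In MASLD, Fgf21 went from 109 CPM in bin 1 through 94.2, 59.9 and 43.7 to 34.0 CPM in bin 5. The log2 ratio of the pericentral over the periportal end was -1.67 (-1.87 to -1.48). In Aza-TdC the bins stood at 48.2, 57.4, 57.9, 30.7 and 21.8 CPM, a log2 ratio of -1.14 (-1.38 to -0.91). There bins 2 and 3 were the highest, bin 1 lay just below them and bins 4 and 5 were the lowest. In SD the bins stood at 3.45, 4.24, 2.68, 3.02 and 0.661 CPM (6 UMIs in bin 5), and the ratio of the ends was -2.38 (-3.94 to -1.10). The first 4 SD bins had overlapping intervals. The periportal list that enters the score had 3 of 16 genes called higher and 5 lower in MASLD than in SD, and the pericentral list 0 higher and 3 lower. Over all genes tested, 13% were called higher and 4.86% lower. For Aza-TdC over MASLD the periportal list had 4 higher and 1 lower and the pericentral list 2 and 4, beside 2.82% and 4.89% of all genes. Apoa4 of the periportal list had a log2 ratio of 5.45 for MASLD over SD and was a leading gene of cluster 13. Its part in the Fgf21 slope was not tested.

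Fgfr1 in SD had the largest log2 ratio between the ends among the 6 genes there, with an interval that overlapped that of Fgf21. It went from 6.21 CPM in bin 1 through 3.32, 1.75 and 0.756 to 0.441 CPM in bin 5, a log2 ratio of -3.82 (-5.74 to -2.38) on 54 and 4 UMIs. In MASLD and Aza-TdC the Fgfr1 bins held 1 to 7 UMIs each, and no slope was detectable at this depth. Klb was higher at the periportal end in SD, 91.5 against 63.9 CPM, a log2 ratio of -0.52 (-0.67 to -0.36). It was -0.41 (-0.58 to -0.23) for MASLD and -0.26 (-0.43 to -0.083) for Aza-TdC. The SD ratio of Fgfr4 was -0.50 (-0.65 to -0.36), the MASLD ratio -0.68 (-0.89 to -0.47) and the Aza-TdC ratio -0.11 (-0.33 to 0.11). Fgfr3 gave -0.38 (-0.57 to -0.18), -0.41 (-0.66 to -0.16) and -0.19 (-0.43 to 0.051). Fgfr2 was the exception in SD, with 0.20 (0.100 to 0.29), and stood at -0.23 (-0.32 to -0.15) for MASLD and -0.40 (-0.47 to -0.32) for Aza-TdC.

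**Figure D3:**
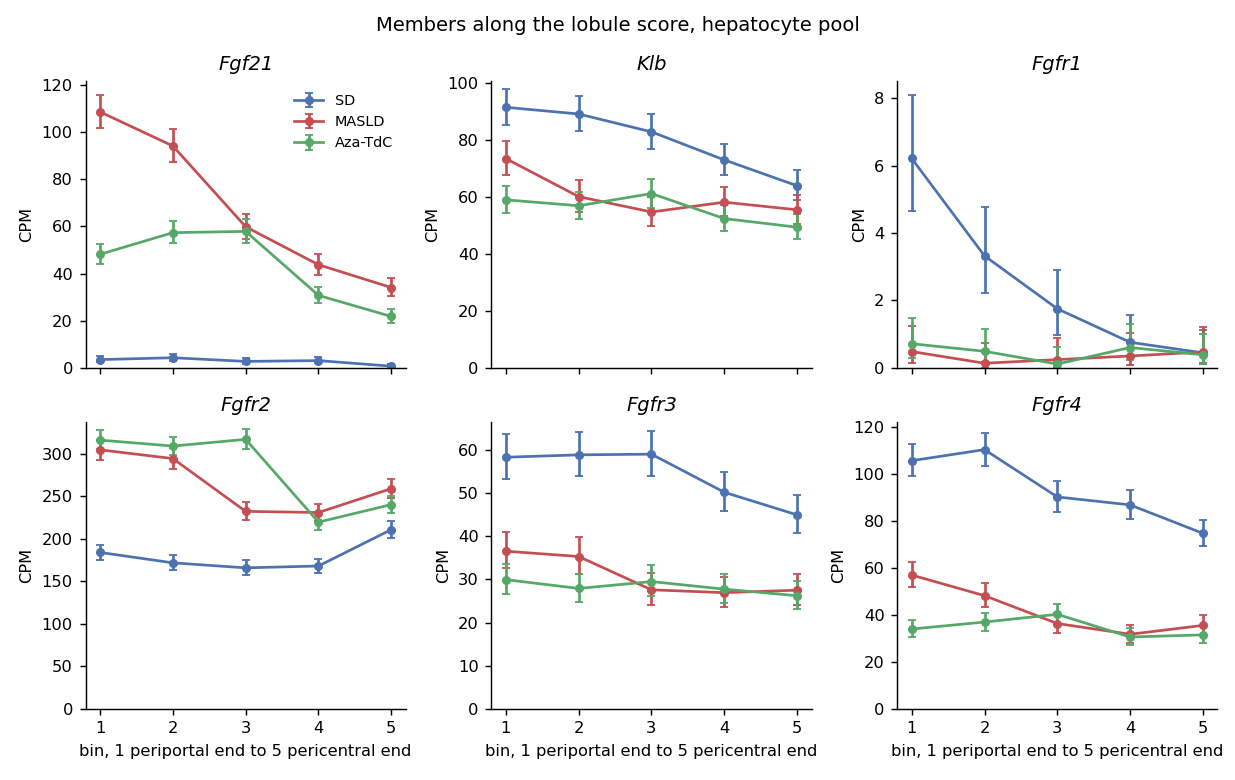
Level of each member (CPM, axes from 0 and different in each panel) in 5 bins of the lobule score, from the periportal end (1) to the pericentral end (5), in the hepatocyte pool of each library. Bars are 95% Poisson intervals. Fgf21 in MASLD goes from 109 to 34.0 CPM, Fgfr1 in SD from 6.21 to 0.441 CPM, and Klb slopes more gently in each library.

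Outside the hepatocyte pool, the level of each member was read beside that of hepatocyte markers in the same class. The endothelial, stellate, macrophage, T and NK and mesothelial-like classes all held UMIs of hepatocyte markers. The median of the 22 hepatocyte markers there was 0.354 to 0.764 times the pool level of the same library, at median depths of 1513.5 to 2869.5 UMIs. Whether free RNA gave these UMIs was not tested. Fgf21 had 0 UMIs in the 281 SD nuclei of all other named classes together, which allows up to 3.63 CPM, above the SD pool level. In MASLD these classes held 42 Fgf21 UMIs in 621 nuclei, 24.0 CPM (17.3 to 32.4), and in Aza-TdC 32 UMIs in 690 nuclei, 15.8 CPM (10.8 to 22.3). By class, Fgf21 in MASLD stood at 45.5 CPM (24.9 to 76.3, 14 UMIs in 6 of 106 nuclei) in stellate-like nuclei. In endothelial-like nuclei it was at 25.9 CPM (13.4 to 45.2, 12 UMIs in 7 of 180 nuclei). Some of these nuclei held more than 1 UMI, so the Poisson intervals may be too narrow. The 2 levels were 0.677 and 0.385 times the pool, where the marker medians were 0.600 and 0.674. In macrophage-like nuclei it was at 9.49 CPM (3.81 to 19.6), 0.141 times the pool with a marker median of 0.389. The share of nuclei with an Fgf21 UMI was 3.89% in MASLD endothelial-like nuclei (median 1795.5 UMIs) against 27.2% in the pool (median 6413 UMIs).

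Klb likewise stood at 0.256 to 0.572 times the pool in the classes of SD, 0 to 0.546 times in MASLD and 0 to 0.564 times in Aza-TdC, and its ratio was below the marker median of the same class everywhere except in Aza-TdC T and NK-like nuclei (2 UMIs). Mesothelial-like nuclei had 0 Klb UMIs in MASLD and Aza-TdC, which allows up to 20.1 and 18.0 CPM. Fgfr4 was at 0.110 to 0.390 times the pool in SD, below the marker median in every class there. In MASLD it was above that median in T and NK-like nuclei, at 1.19 times the pool against 0.684 (3 UMIs), in stellate-like nuclei, at 0.706 against 0.600 (9 UMIs), and by a narrow margin in macrophage-like nuclei, at 0.393 against 0.389 (12 UMIs). In Aza-TdC it was above it in stellate-like nuclei, at 0.540 against 0.354 (4 UMIs). Fgfr3 ran from 0 to 0.756 times the pool in SD, the highest being in macrophage-like nuclei (4 UMIs). Each of these levels rests on at most 18 UMIs a class, and whether Klb, Fgfr3 or Fgfr4 is expressed outside hepatocytes could not be settled at this depth.

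Fgfr2 and Fgfr1 had higher levels in other classes than in the pool. Fgfr2 was highest in stellate-like nuclei, the vitamin A storing cells that lay down matrix in liver fibrosis. The stellate-like level was 871 CPM (756 to 998) for SD, 874 CPM (773 to 985) for MASLD and 1108.5 CPM (972 to 1259) for Aza-TdC. These levels were 4.83, 3.32 and 3.96 times the pool, and in each library their interval lay above every other class. The log2 ratio of MASLD over SD was 0.0060 (-0.26 to 0.27) in these nuclei, and that of Aza-TdC over MASLD was 0.34 (0.085 to 0.60). Fgfr2 was found in 81.8% of SD stellate-like nuclei at a median of only 2211 UMIs. In endothelial-like nuclei it was at 188, 129 and 190 CPM.

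Fgfr1 was highest in SD in mesothelial-like nuclei, the lining of the liver capsule, at 70.7 CPM (25.9 to 154, 6 UMIs). Macrophage-like nuclei followed at 40.9 CPM (11.1 to 105, 4 UMIs), stellate-like nuclei at 29.6 CPM (11.9 to 60.9) and endothelial-like nuclei at 13.2 CPM (4 UMIs in 114 nuclei), neighbours that did not differ beyond their intervals. In MASLD the order was macrophage-like 56.9 CPM (41.0 to 77.0), stellate-like 32.5 CPM, mesothelial-like 26.8 CPM and endothelial-like 19.4 CPM. At a finer clustering, a dendritic-like class held 38 MASLD UMIs of Fgfr1 and the macrophage-like class 4. In Aza-TdC it was mesothelial-like 90.1 CPM (50.4 to 149), endothelial-like 45.2 CPM (27.2 to 70.6), macrophage-like 23.7 CPM (15.6 to 34.4) and stellate-like 14.0 CPM. The pool lay at 2.46 CPM or below, under the interval of each of these 4 classes in each library. Over all named classes besides hepatocytes, Fgfr1 stood at 25.4 CPM (15.7 to 38.8) for SD, 37.7 CPM (29.1 to 47.9) for MASLD and 31.6 CPM (24.4 to 40.4) for Aza-TdC, with overlapping intervals. The lower Fgfr1 of the MASLD-diet libraries was thus seen in the pool, while the other classes together did not differ beyond their intervals. These sums depend on the mix of classes: 33 of 281 SD nuclei were macrophage-like, against 244 of 621 in MASLD. Of the 66 MASLD UMIs, 38 lay in the dendritic-like class of the finer clustering. The sums therefore do not settle the single classes. SD cluster 1, which held most of the SD UMIs, had 0 nuclei of the other libraries.

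**Figure D4:**
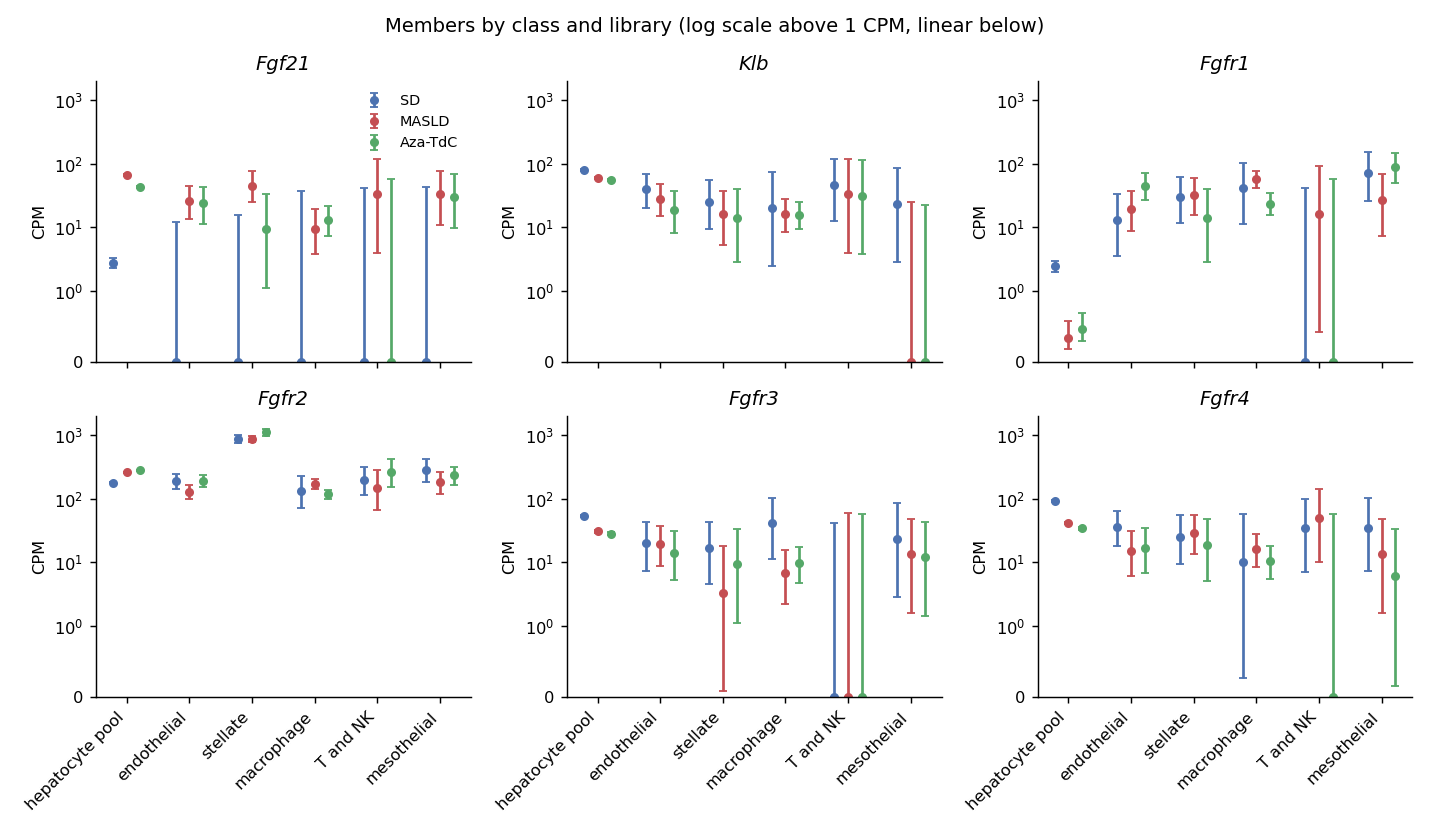
Level of each member by class and library, in CPM (log scale above 1, linear from 0 to 1), with 95% Poisson intervals. Stellate-like nuclei stand highest for Fgfr2 at 871 to 1108.5 CPM, the hepatocyte pool lies lowest among the 5 classes with UMIs for Fgfr1 in SD, and Fgf21 has 0 UMIs in every SD class drawn outside the pool.

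Other genes of the axis were read in the pool from lists of named genes. Among 11 measured genes of 26 FGF ligands and co-receptors, 2 were called higher and 1 lower in MASLD than in SD, with a median log2 ratio of 0.46. Of all genes tested, 13% were called higher and 4.86% lower. Fgf14, an intracellular FGF of excitable cells, went from 24 to 340 UMIs (log2 ratio 3.93) and Fgfbp3, a carrier of FGFs, was at 1.92. Fgf22 was the one called lower, at -1.55 (-3.02 to -0.27). Fgf1, a ligand of all FGF receptors, stood at 180, 247 and 355 CPM in SD, MASLD and Aza-TdC, log2 ratios of 0.46 and 0.53 in 2 steps below the calling size. Kl, the co-receptor for FGF23, had 1 UMI in SD and 3 in MASLD. Fgf15, the gut ligand of FGFR4, had 0 UMIs in all 3 pools, which allows at most 0.0727 CPM.

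The relay from receptor to ERK kinases had few called genes. Of 26 measured genes, 1 was called higher in MASLD than in SD and 0 lower, beside 13% and 4.86% of all genes tested. The median log2 ratio of the list was -0.043. The one called was Flrt3, a membrane protein that binds FGF receptors, at 1.89, and it was called lower again in Aza-TdC at -1.62. Of the 16 measured genes of FGF feedback and ERK targets, 7 were called higher and 0 lower, with a median of 0.62, where 13% of all genes tested were called higher and 4.86% lower. The RNA quality list, which also holds Fos, had 9 of 18 higher in this comparison. Dusp6, the ERK phosphatase, went from 11.4 to 27.5 CPM (log2 ratio 1.27, 1.11 to 1.42) and stood at 23.1 CPM in Aza-TdC. The early response gene Ier3 was at 3.76. The classical feedback genes Spry4 at -0.057 and Etv5 at -0.35 and the early response gene Egr1 at -0.59 were not called. In Aza-TdC over MASLD 1 of 17 was called, the early response gene Fos, lower at -1.17. Of all genes tested there, 2.82% were called higher and 4.89% lower.

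Most known drivers of Fgf21 were not called, while many of their targets were. Of 22 regulators, 3 were called higher and 1 lower in MASLD than in SD, with a median log2 ratio of 0.15, equal to that of all genes. Pparg was at 1.79 (32.8 to 114 CPM) and Atf5 at 1.56. Ppara itself was at 0.35 and Atf4 at 0.66, both under the calling size, and Mlxipl, the gene of ChREBP, was at -0.73. Of the 18 PPARA targets, 10 were called higher and 0 lower, with a median of 1.72. The pyruvate dehydrogenase kinase gene Pdk4 was at 4.09 and the acyl-CoA thioesterase gene Acot2 at 4.08. Of 18 measured ATF4 and stress targets, 9 were called higher and 0 lower, with a median of 1.07, among them Nupr1 at 5.05 and Psat1, of serine synthesis, at 3.56. The lists overlap: Atf5 and Ddit3 are listed both as regulators and as ATF4 and stress targets, and Creb3l3 both as a regulator and as a PPARA target. Atf5 is thus counted as called in both of its lists. The background share of genes called higher was 13%, against 10 of 18 and 9 of 18 here, and the RNA quality list had 9 of 18. For genes called lower the background share was 4.86%.

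In Aza-TdC over MASLD, 1 of 18 PPARA targets was called higher and 2 lower, with a median of -0.31, where 2.82% of all genes tested were called higher and 4.89% lower. The RNA quality list had 11 of 18 lower in this comparison, with a median of -1.21. Cyp4a10, a fatty acid hydroxylase, was higher at 1.04, and the fatty acid binding protein gene Fabp1 (-1.52) and Vnn1 (-1.22) were lower. Of 20 ATF4 and stress targets 1 was called in each direction: Asns, asparagine synthetase, at 2.29 (36 UMIs in MASLD) and Gdf15 at -1.17. Among the regulators, Ppara was at 0.12 and Atf4 at -0.43.

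Among secreted liver factors, Gdf15, another stress hormone of the liver, had the same order of libraries as Fgf21. Inhbe, Igfbp2, Selenop, Rbp4, Bmp2 and Angptl6 of that list shared this order. Gdf15 stood at 6.20 CPM for SD, 57.4 CPM for MASLD and 25.4 CPM for Aza-TdC, log2 ratios of 3.21 (3.03 to 3.39) and -1.17 (-1.27 to -1.08). Of 22 measured hepatokines 4 were called higher and 1 lower in MASLD than in SD, with a median of 0.24, near the 13% and 4.86% of all genes tested. Inhbe, the gene of activin E, was at 1.81, with 27.7, 97.6 and 44.3 CPM in SD, MASLD and Aza-TdC. Enho, of adropin, was the one lower at -3.74. In Aza-TdC over MASLD 1 of 21 was called higher (Fgl1, a fibrinogen-like protein secreted by hepatocytes, at 1.20) and 4 lower. Of all genes tested in that comparison, 2.82% were called higher and 4.89% lower.

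The list of the bile acid arm of FGFR4 holds genes of synthesis, regulation and transport, not all of them restrained by FGFR4. It had 1 of 9 measured genes called higher in MASLD than in SD and 0 lower, beside 13% and 4.86% of all genes tested. The median of the list was -0.061. The one called was Cyp8b1, the sterol 12-alpha-hydroxylase of cholic acid synthesis, from 7.51 to 52.7 CPM (log2 ratio 2.81, 2.65 to 2.98). Cyp7a1, whose enzyme opens the classical route from cholesterol to bile acids, was at 143, 257 and 340 CPM in SD, MASLD and Aza-TdC, log2 ratios of 0.85 and 0.40. Nr0b2, the repressor SHP, was called higher in Aza-TdC than in MASLD at 1.01, with 44.1, 73.1 and 147 CPM in SD, MASLD and Aza-TdC.

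**Figure D5:**
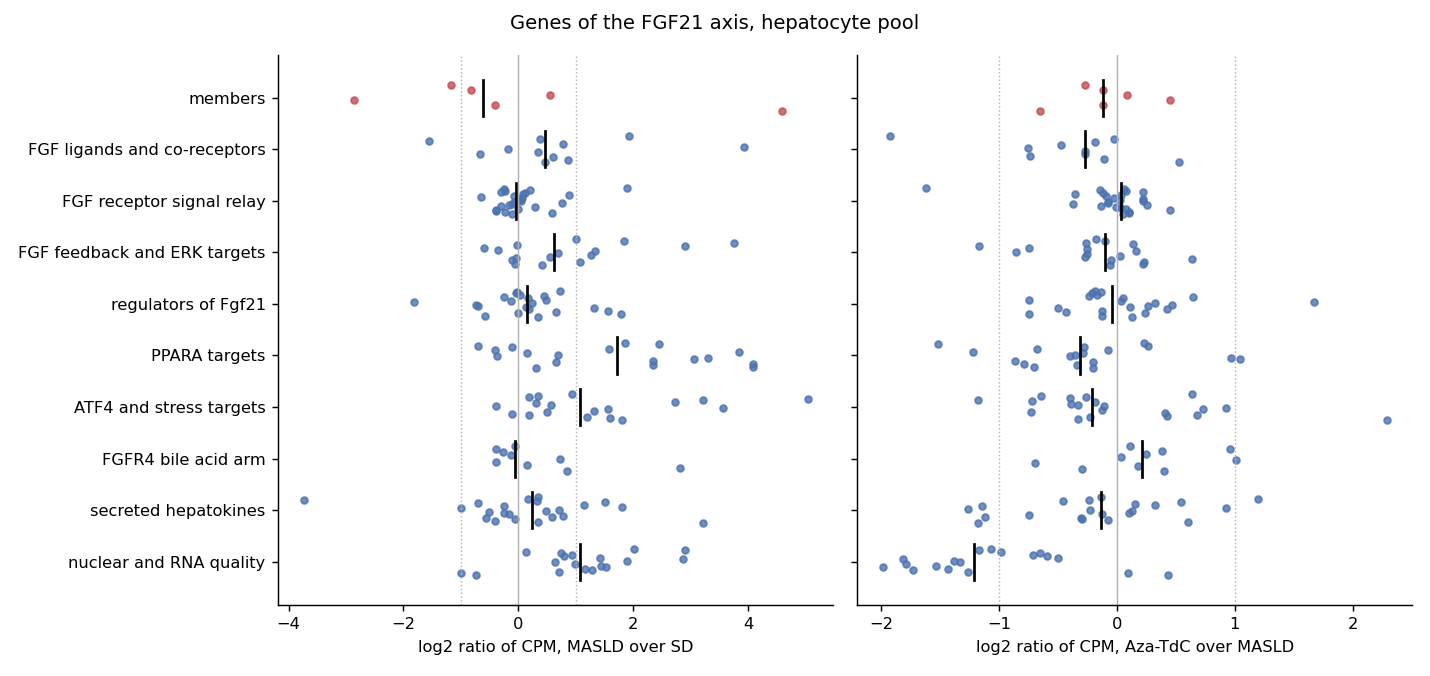
Log2 ratio of CPM in the hepatocyte pool for each measured gene of the lists (1 point per gene, black line at the list median), MASLD over SD on the left and Aza-TdC over MASLD on the right. Dotted lines mark the calling size. PPARA targets have the highest median on the left at 1.72, the signal relay lies around 0 on both sides, and the RNA quality list is at 1.08 and then -1.21.

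Genes whose levels ran most like those of Fgf21, Klb and Fgfr4 were found over the 13 pools of 1 library and 1 cluster, among 10834 genes, by Pearson's r of log2(CPM + 1). The pools share libraries and the ranking is a description. For Fgf21 the 5 closest were Paqr9 (r = 0.983), BC005537, Tspan31, Capza2 and Mmadhc (r = 0.969). Paqr9 stood at 48.8, 150 and 113 CPM in SD, MASLD and Aza-TdC, the same order as Fgf21. For Klb they included Irf5, Pstpip2, Trmt61b and Slc13a2 (r = 0.872). For Fgfr4 they included Iws1, Ern1, Fbxo34 and Cyth1 (r = 0.954). Ern1, the stress sensor IRE1, was at 449, 182 and 173 CPM in SD, MASLD and Aza-TdC.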

How the data were processed

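The authors deposited UMI counts, unnormalized, for each gene in each nucleus. Per the file headers, Cell Ranger 6.1.2 made them. The submitters' processing notes list Seurat 4.4.0, mm10 and GRCm38, with no role. Whether introns were counted, and whether doublets or free RNA had been removed, is not stated in what was used here. Barcodes with 500 or more UMIs, 300 or more genes and mitochondrial UMIs of 5% or less were retained. No doublet caller was run, and leaving out the 5% deepest nuclei was an alternative. The 3 libraries were clustered together without integration in scanpy (3000 variable genes, 30 principal components, 15 neighbours, Leiden resolution 1; resolution 2 as an alternative).

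Clusters took a name from 13 marker lists: another class where the median log2 of its markers over the other nuclei reached 3, with 3 or more of them up 2-fold, or else hepatocyte where at least 3 of 22 markers reached 0.25 of their highest cluster level. A name was lost where another class had more markers than its own among the 10 leading genes, or where the cluster was shallow. UMIs were summed per class and library and given as CPM of the class total. Intervals at 95% are exact Poisson for CPM, Clopper-Pearson for shares and conditional binomial for ratios (scipy). Genes were compared where the pair of libraries gave 20 or more UMIs, and a count of 0 was read against 3 counts. Shares were also computed after thinning to 3000 or 2000 UMIs. The ratio script was tested on simulated data.

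Text names all members, up to 4 genes of each list (the 2 highest and the 2 lowest ratios) and a few further listed genes, and the 5 most alike genes with at least 200 UMIs. Genes named beside these, such as cluster leaders and Fgf15, were chosen after their values were seen. Some genes that the rule selects are not reported here. The members and lists were chosen with earlier results of these data known. Gene positions and promoter windows come from RefSeq on GRCm38.p6. Versions were Python 3.11.15, scanpy 1.11.5, igraph 0.11.9, scikit-learn 1.9.0, scipy 1.17.1, numpy 2.4.6 and pandas 2.3.3.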

Additional observations from a re-analysis of the deposited data

Results flagged for a closer look

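Fgfr1 went opposite ways in 2 classes between Aza-TdC and MASLD, with 1 library on each side, and the difference between the classes was not tested. In endothelial-like nuclei the log2 ratio was 1.22 (0.0058 to 2.55), from 9 UMIs in 180 MASLD nuclei to 19 UMIs in 183 Aza-TdC nuclei. Without the nucleus that held most in each library the interval included 0 (-0.061 to 2.65), as it did at the finer resolution (-0.058 to 2.48). At that resolution an endothelial-like cluster led by Vwf held 37 Aza-TdC but 5 MASLD nuclei, with 8 of the Aza-TdC UMIs (83.6 CPM), so the class was made up differently in the 2 libraries. In macrophage-like nuclei it was -1.27 (-2.02 to -0.54), from 42 UMIs in 244 nuclei to 27 UMIs in 324 nuclei. The 42 MASLD UMIs lay in 17 nuclei, with up to 8 UMIs in 1 nucleus, while the 27 Aza-TdC UMIs lay in 25 nuclei with at most 2 each. The finer resolution gave a macrophage-like class, led by Clec4f and Cd5l of Kupffer cells, and a dendritic-like class with Flt3 and class II genes such as H2-Aa among its leading genes. In Aza-TdC these classes together held a few more nuclei than the single class before. The dendritic-like nuclei held 38 UMIs in 79 MASLD nuclei (161 CPM) and 1 UMI in 29 Aza-TdC nuclei. The macrophage-like nuclei then held 4 UMIs in 165 MASLD nuclei (7.98 CPM) and 26 UMIs in 301 Aza-TdC nuclei (24.7 CPM), a log2 ratio of 1.63 (0.10 to 3.61), so the sign turned.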

How the results depend on the processing

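The main limits are 1 library per group, hepatocyte clusters that separate by library, and free RNA. Fgf21 kept its direction and call for MASLD over SD under every alternative run, and the log2 ratio of Fgf21 was 5.08 without cluster 14 and 3.89 with the endothelial-like level subtracted. For Aza-TdC over MASLD it was -0.56 with median-ratio scaling, -1.12 with that subtraction and -1.14 without cluster 14, where 1 member was then called lower in either of the last 2 settings. Klb for MASLD over SD was -0.54 with median-ratio scaling, -0.31 with the subtraction and -0.28 without cluster 14. For Aza-TdC over MASLD it was -0.024, 0.18 and -0.24 in these settings, so its sign was the opposite with the subtraction. Members called higher in MASLD than in SD were 2 with the subtraction, but the second was Fgfr2, whose endothelial-like level in SD lay above the pool. The subtraction therefore says nothing on Fgfr2, nor on Fgfr1, which was also higher in endothelial-like nuclei. For the other members its intervals leave out the counting error of the endothelial-like level, so calls made with it are uncertain. Members called lower were 1 over all kept nuclei and 1 without cluster 14. Leaving out clusters 12 and 16 changed no count of members called. The settings without clusters were chosen after seeing the data. The setting without cluster 14 leaves out 51.7% of the MASLD pool nuclei but 0.382% of those of Aza-TdC, so it compares unlike parts of the libraries. Fgfr1 in macrophage-like nuclei, -1.27 for Aza-TdC over MASLD, was 1.63 at Leiden resolution 2. Of 105 recomputed ratios of members in the pool, 78 stayed within their interval, 27 moved and 0 of the called ones changed sign. No paired analysis was possible because each group had 1 library. Depth limits Fgfr1 in the pool and Fgf21, Klb, Fgfr3 and Fgfr4 in the small classes.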
